A study of Homo sapiens with 8 samples.

Results

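The effect of epirubicin in LPS-stimulated macrophages was read from 4 of the 8 arrays of the series, 2 of cells given epirubicin with LPS against 2 of cells given LPS without epirubicin. Arrays were chosen by their titles, which state the dose of each agent, and the comparison covered 20893 probe sets, every row of the value table whose identifier starts with TC. All cells were THP-1, a single human monocytic leukaemia line, made macrophage-like beforehand with the phorbol ester PMA at 100 ng/mL. Epirubicin (0.25 µg/mL) was present for 24 h, and LPS (100 ng/mL) for 3 h. The other 4 arrays, 2 with epirubicin but no LPS and 2 of untreated cells, had the same PMA step. They helped to estimate the spread between duplicates and showed where the epirubicin effect differed with and without LPS. Whether the duplicates of a condition were separate cultures is stated neither in the labels nor in the methods. The p-values therefore reflect the spread among these arrays alone, and that spread may be technical. With 2 arrays a condition, their number limits the precision of every value. In such bulk RNA, fewer cells of a type and less RNA per cell cannot be told apart.

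Epirubicin is an anthracycline used against solid tumours. It slides between the base pairs of DNA, traps topoisomerase II on cut DNA and can push histones off chromatin. LPS, from the wall of Gram-negative bacteria, is handed by CD14 to TLR4 and its partner MD-2 on the macrophage surface. MYD88 then carries the signal to NF-κB and the MAP kinases, which switch on cytokine genes, while TRIF carries it to IRF3 and interferon-β. Secreted interferon-β acts back on the cells and switches on the interferon-stimulated genes.

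The deposited values are log2 levels after normalization. Array means lay between 6.73 and 6.76 and medians between 5.78 and 5.88, and duplicates correlated at 0.986 to 0.987 across probe sets. The standard deviation of the differences between duplicates was 0.56 for epirubicin with LPS, 0.53 for LPS, 0.54 for epirubicin and 0.53 for untreated cells. All 10 measured macrophage markers had mean levels of at least 6 in both conditions with LPS, whereas 2 of 6 lymphocyte, 1 of 5 fibroblast and 0 of 6 epithelial markers did. Of 6 markers of undifferentiated myeloid cells, 4 reached this level. The mean of the log2 levels of all 6 was 8.46 and 8.43 with epirubicin and LPS, against 8.98 and 9.04 with LPS. CTSG, a granule protease on that list, fell by 1.75 (SE 0.34, adjusted p = 0.121). Without LPS it averaged 6.04 with epirubicin and 6.05 in untreated cells, so that its LPS arrays were the high ones. The median log2 fold change of the list was −0.31 with LPS and 0.10 without. The part of this marker shift in other results was not tested. The file holds no detection calls. The 23 background control probe sets had mean levels between 2.46 and 6.88, 5 of them above 6, so that fold changes of genes at such levels are uncertain in size.

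At the unadjusted threshold given next, epirubicin under LPS raised transcripts of FSTL3, 2 of 17 tight junction genes and some interferon-stimulated genes. It lowered those of metallothioneins, linker histones and several surface receptors. A gene was counted as changed at an unadjusted p of 0.01 or less together with a change of 2-fold or more, the threshold of the study, in a limma model of all 4 conditions. Of 20893 probe sets, 570 (2.73%) passed, 270 of them higher and 300 lower. Counted as genes, 226 of 17747 (1.27%) were higher and 259 (1.46%) lower, while the median log2 fold change over all genes was 0.00. Counts in the gene lists below are to be read beside these shares, and few calls say little about a list as a whole. Most changes were between 2-fold and 4-fold, and 48 probe sets went beyond 4-fold, 18 higher and 30 lower. Both epirubicin arrays lay above both LPS arrays in 21.4% of all genes and below them in 20.7%. Pairs that do not overlap are thus common, and more so in genes chosen for their change. After Benjamini-Hochberg adjustment, 26 probe sets kept a p of at most 0.05 (0.124%), which gave 9 named genes higher and 16 lower. With any 1 of the 4 arrays left out, 1 probe set kept such an adjusted p, and it was FSTL3 each time. Of the genes past the unadjusted threshold, 64 higher and 83 lower ones passed whichever of the 4 arrays was left out. The plot of level against fold change shows changed genes at all levels, although 44 of the higher and 52 of the lower genes stayed under a mean of 6 in both conditions.

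**Figure D1:**
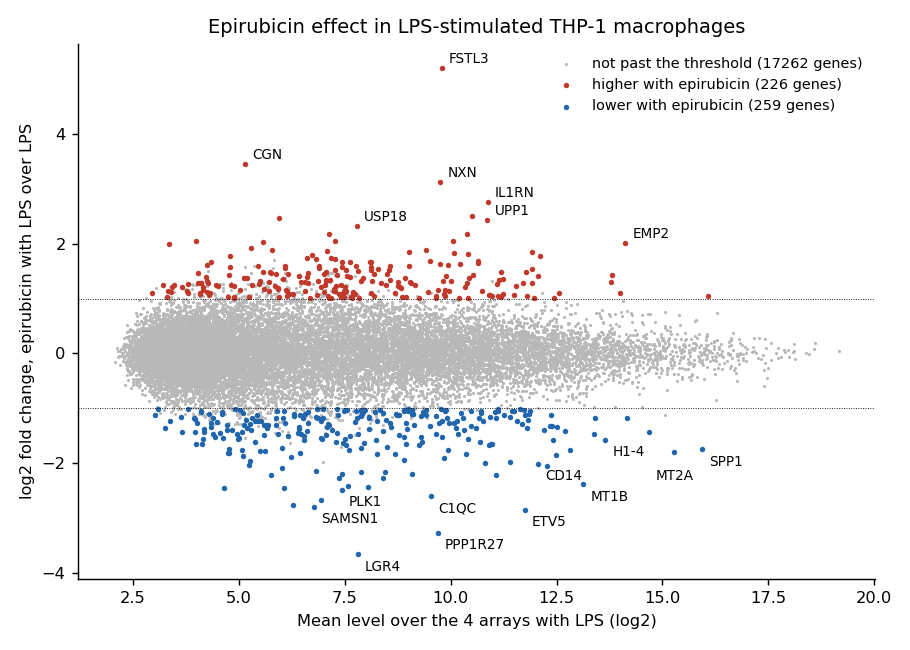
Each point is a gene, placed by its mean log2 level over the 4 arrays with LPS (x axis) and by the log2 fold change of epirubicin with LPS over LPS (y axis). The 226 higher genes (red) and 259 lower genes (blue) occur at all levels, and FSTL3 stands apart at 5.19.

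The largest rise was in the activin pathway. Activins are secreted dimers of inhibin β chains that signal through ACVR receptors and SMAD proteins, and follistatin and FSTL3 bind and neutralise them. FSTL3 had levels of 12.18 and 12.58 with epirubicin and LPS, against 7.44 and 6.94 with LPS (log2 fold change 5.19, SE 0.30, adjusted p = 0.00183), or 36.6-fold. Without LPS the gene lay near background, at 4.57 and 5.07 with epirubicin, against 4.71 and 4.93 in untreated cells. The high level was thus measured in the 2 arrays that had received both agents, and both stood far above the other 6. INHBA, which encodes the βA chain of activin A, had levels of 11.63 and 11.34 with epirubicin and LPS, against 9.68 and 9.90 with LPS, a rise of 1.69 (SE 0.27, adjusted p = 0.0785). Ligand chain and antagonist therefore rose in the same arrays. FST, which encodes follistatin itself, stayed low at 4.43 and 4.44 with epirubicin and LPS, against 3.99 and 3.92 with LPS. Of the 14 measured genes of the pathway 2 rose and 0 fell, also with any 1 of the 4 arrays left out, and the median log2 fold change was 0.19.

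Genes of tight junctions were also among the largest rises. CGN encodes cingulin, a cytoplasmic plaque protein of these junctions. Its levels were 6.98 and 6.74 with epirubicin and LPS, against 3.77 and 3.05 with LPS (log2 fold change 3.45, SE 0.31, adjusted p = 0.017). CLDN1 encodes claudin-1, a membrane protein that seals the space between cells. Its levels were 8.12 and 8.31 with both agents, against 5.76 and 6.32 with LPS (log2 fold change 2.17, SE 0.29, adjusted p = 0.0497). In both genes the pairs were clear of each other, and both calls held with any 1 of the 4 arrays left out. OCLN, which encodes occludin, pointed the other way (−0.94, adjusted p = 0.398) and did not pass. The list of 17 tight junction genes had 2 that rose, 0 that fell and a median of 0.01.

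Several other genes rose over 4-fold, with the conditions well apart. NXN, which encodes the thioredoxin-like protein nucleoredoxin, had levels of 11.48 and 11.14 with epirubicin and LPS, against 8.50 and 7.89 with LPS (log2 fold change 3.12, SE 0.42, adjusted p = 0.0496). CTSV, a lysosomal cysteine protease, stood at 7.16 and 7.20 with both agents, against 4.83 and 4.58 with LPS (2.47, SE 0.30, adjusted p = 0.0448). UPP1, uridine phosphorylase, which splits uridine into uracil and ribose phosphate, stood at 11.91 and 12.25 with both agents, against 9.55 and 9.76 with LPS (2.42, SE 0.37, adjusted p = 0.0722). In these 3 genes the lower array of the epirubicin pair exceeded the higher LPS array by over 4-fold. RASL11A, a Ras-like protein, stood at 11.37 and 11.57 with both agents, against 9.36 and 9.23 with LPS (2.17, SE 0.22, adjusted p = 0.0345). ARRDC4, an arrestin-like adaptor, stood at 11.02 and 11.13 with both agents, against 8.97 and 9.10 with LPS (2.04, SE 0.24, adjusted p = 0.0448). EMP2, a tetraspan membrane protein, was bright in all 4 arrays, at 15.09 and 15.16 with both agents, against 13.12 and 13.11 with LPS (2.01, SE 0.24, adjusted p = 0.0448). Duplicates of these 3 genes differed little beside the gap between the conditions. ANTXR1, a receptor for anthrax toxin, stood at 11.95 and 11.59 with both agents, against 8.87 and 9.65 with LPS (2.51, SE 0.34, adjusted p = 0.0503). It also rose in the absence of LPS, where it stood at 12.40 and 12.63 with epirubicin, against 10.21 and 10.79 in untreated cells. CTSV, UPP1, ARRDC4 and EMP2 rose there too, by 1.22, 1.47, 1.56 and 1.05, whereas NXN (−0.80) and RASL11A (0.47) did not pass without LPS. LINC01359, a long non-coding RNA, rose by 2.05 at low levels, to a mean of 5.02 with epirubicin and LPS, against 2.97 with LPS. TMEM121B, CDKL3, NHSL1 and HIVEP3, a zinc-finger transcription factor, rose by 2.04, 1.91, 1.85 and 1.84, at adjusted p-values of 0.0886 to 0.138.

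**Figure D2:**
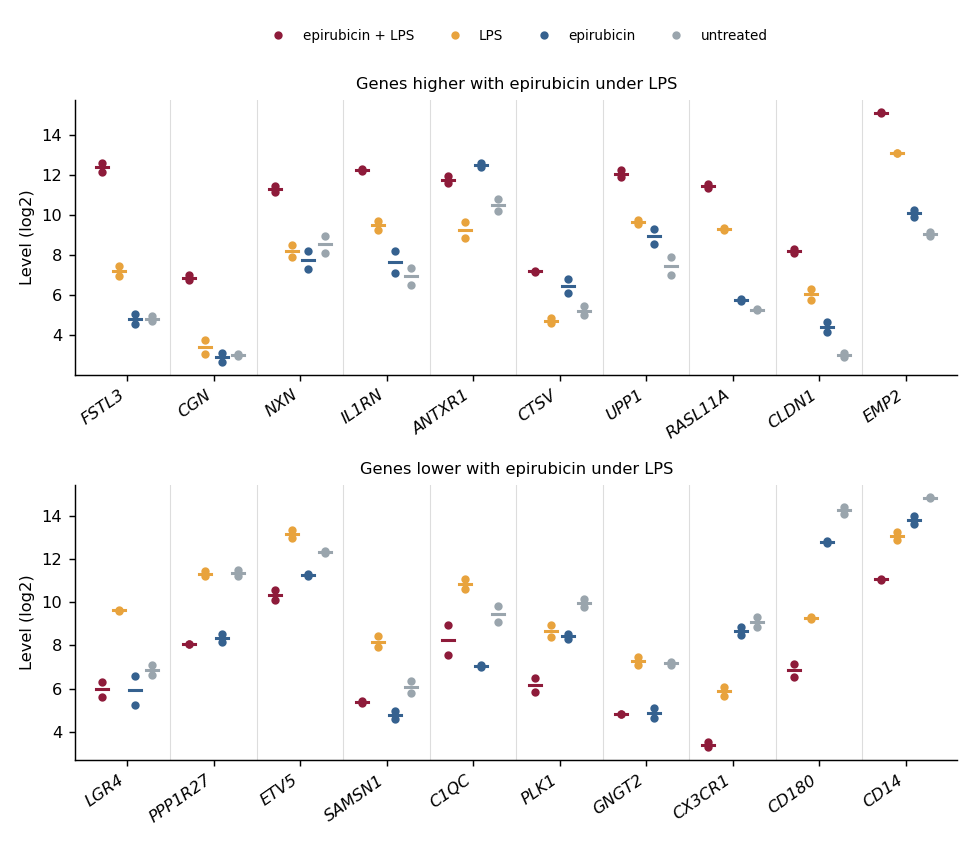
Log2 level (y axis) of each of the 8 arrays (points) and the mean of each duplicate pair (bars) for 10 genes higher and 10 genes lower with epirubicin under LPS. FSTL3 is at 12.18 and 12.58 with both agents, against 7.44 and 6.94 with LPS, and in each of the 20 genes the pair with both agents does not overlap the LPS pair. The genes were chosen for large changes in these arrays, so that this separation follows largely from the choice.

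Interferon-stimulated genes formed the largest group that rose. Of 51 measured members, 19 rose and 1 fell, the nuclear body gene SP100, by 1.01, against 1.27% of all genes higher and 1.46% lower. After adjustment, 0 of these calls passed. Both epirubicin arrays were above both LPS arrays in 32 members, beside 21.4% of all genes. The median log2 fold change of the list was 0.64, beside 0.00 over all genes. SP100 stood at −0.89 without epirubicin with LPS duplicate 1, −0.99 without LPS duplicate 1 and −1.02 without LPS duplicate 2, none of which passed. The count that rose depended on single arrays. Without LPS duplicate 2, 7 members rose (median 0.51), and without epirubicin with LPS duplicate 1, 10 did (median 0.58). Without epirubicin with LPS duplicate 2, the number was 12 (median 0.77), and without LPS duplicate 1 it was 13 (median 0.76). In cells without LPS, epirubicin gave 2 members higher and 0 lower, with a median of 0.06. USP18 was among those higher there, at 1.43. The difference between the effects with and without LPS passed after adjustment in 0 members. At the unadjusted threshold it passed in 3, beside 1.59% of all genes.

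The rises took in regulators and effectors of the response. USP18, which strips ISG15 from proteins and damps the interferon receptor, had levels of 9.03 and 8.86 with epirubicin and LPS, against 7.16 and 6.09 with LPS (log2 fold change 2.32, SE 0.40, adjusted p = 0.0971). IFIH1, which encodes the RNA sensor MDA5, is on the separate list of nucleic acid sensors, not on the list above. It had levels of 12.73 and 12.63 with epirubicin and LPS, against 11.08 and 11.21 with LPS (1.53, SE 0.24, adjusted p = 0.0785). HERC5, the ligase that attaches ISG15, had levels of 8.51 and 8.62, against 6.92 and 7.20 with LPS (1.50, SE 0.31, adjusted p = 0.14). The pairs of all 3 genes were clear of each other, and the calls held with any 1 of the 4 arrays left out. OAS2, which makes the oligoadenylates that activate RNase L, SAMD9, an antiviral factor, and RTP4, a receptor transporter protein, rose by 1.37, 1.32 and 1.15 (adjusted p = 0.104 to 0.14). SAMD9 and RTP4 differed in their levels without LPS. SAMD9 stood at 10.88 and 10.44 with both agents, against 9.50 and 9.19 with LPS, but averaged 10.68 with epirubicin and 10.89 in untreated cells. RTP4 was under 6 with LPS, at 5.54 and 5.68 with both agents, against 4.39 and 4.53 with LPS alone. It averaged 7.03 with epirubicin and 7.41 in untreated cells. In both genes, among the conditions with LPS, the one with epirubicin was thus closer to the cells without LPS. CMPK2, a mitochondrial nucleotide kinase, rose by 1.87 and ISG20, an exonuclease for RNA, by 1.60. CMPK2 stood at 1.40 without epirubicin with LPS duplicate 1, 1.93 without LPS duplicate 1 and 1.82 without LPS duplicate 2, and ISG20 at 1.37 without LPS duplicate 2, none of which passed. ISG15 itself (0.69, adjusted p = 0.443) did not pass. The other members that rose included MX1 (1.29), IFIT1 (1.25), RSAD2 (1.48) and XAF1 (1.81), 4 antiviral or apoptosis genes named, like SP100, after their values were seen, and MX1 lost its call with any 1 of the 4 arrays left out (1.08 to 1.50). IFIT1 was at 0.96 without epirubicin with LPS duplicate 2, 1.07 without LPS duplicate 1 and 1.44 without LPS duplicate 2, RSAD2 at 1.24 without epirubicin with LPS duplicate 1 and 1.06 without LPS duplicate 2 and XAF1 at 1.53 without epirubicin with LPS duplicate 1 and 1.57 without LPS duplicate 1, all of them short of the threshold.

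The genes upstream of the response gave fewer calls. IFNB1, interferon-β, had levels of 4.38 and 4.14 with epirubicin and LPS, against 3.50 and 3.15 with LPS, all near background (0.93, adjusted p = 0.342). RIGI, an RNA sensor related to MDA5, had levels of 11.53 and 11.27, against 10.47 and 10.41 with LPS, and its 0.96 fell just short of 2-fold, although it passed at 1.09 without epirubicin with LPS duplicate 2. CGAS, the DNA sensor that makes cyclic GMP-AMP, stood at 0.40 and the receptor chain IFNAR1 at 0.46, and neither passed. Of 12 measured interferon, receptor and signalling genes 0 rose and 0 fell in the limma fit (median 0.25). Of 9 nucleic acid sensors 1 rose, IFIH1 (median 0.40). Both epirubicin arrays were above both LPS arrays in 6 of the 12 and 6 of the 9, beside 21.4% of all genes. They were below in 2 of the 12 and 1 of the 9, beside 20.7%. CIITA, the master activator of MHC class II genes, had levels of 8.41 and 8.49, against 7.15 and 6.41 with LPS (1.67, SE 0.29, adjusted p = 0.0971). Its classical targets HLA-DRA (0.34) and CD74 (0.28) did not pass, and the median of the 9 genes of this list was 0.43. ERAP2, which trims peptides for MHC class I, rose by 1.60 but was at 1.13 without epirubicin with LPS duplicate 1 and 0.93 without LPS duplicate 1, short of the threshold. GBP1, a guanylate-binding protein, rose by 1.41 (SE 0.31, adjusted p = 0.166) and was at 1.33 without epirubicin with LPS duplicate 1 and 1.25 without LPS duplicate 2, where it did not pass. GBP5 did not pass, at −0.22.

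The promoters of these genes were read from RefSeq windows of GRCh38.p14, which run from 250 bases before to 50 bases after the annotated start, taking the first listed window of each gene. Windows were found for 14280 of the 17747 genes. The interferon-stimulated response element was searched as GAAANNGAAA on both strands, where N is any base and matches may overlap. It occurred in 443 of 14280 windows (3.1%), in 18 of 178 windows of risen genes (10.1%) and in 3 of 206 windows of fallen genes (1.46%). Of the interferon-stimulated genes with a window, 10 of 15 that rose held it (66.7%), and so did 16 of 25 that did not pass the threshold (64%). Outside that list, 8 of 163 risen genes held it (4.91%). The promoters of 3 risen members are given in the direction of transcription with each match in capitals, to show where the element lies. HERC5 has 3 matches in chr4:88456869-88457168 on the plus strand, RTP4 has 2 in chr3:187368135-187368434 on the plus strand, and SAMD9 has 1 in chr7:93117930-93118229 on the minus strand.
HERC5: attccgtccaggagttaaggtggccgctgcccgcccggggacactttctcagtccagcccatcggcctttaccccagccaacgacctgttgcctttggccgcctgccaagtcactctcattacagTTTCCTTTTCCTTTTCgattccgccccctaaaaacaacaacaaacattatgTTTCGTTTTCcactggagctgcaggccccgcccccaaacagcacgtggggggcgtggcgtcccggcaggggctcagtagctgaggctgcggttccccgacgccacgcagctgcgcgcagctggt
RTP4: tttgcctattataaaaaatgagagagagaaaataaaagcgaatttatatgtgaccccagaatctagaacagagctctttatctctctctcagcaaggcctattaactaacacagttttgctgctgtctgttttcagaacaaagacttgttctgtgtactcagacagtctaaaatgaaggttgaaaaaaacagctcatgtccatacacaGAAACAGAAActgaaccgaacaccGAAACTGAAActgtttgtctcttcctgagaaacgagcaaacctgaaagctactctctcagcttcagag
SAMD9: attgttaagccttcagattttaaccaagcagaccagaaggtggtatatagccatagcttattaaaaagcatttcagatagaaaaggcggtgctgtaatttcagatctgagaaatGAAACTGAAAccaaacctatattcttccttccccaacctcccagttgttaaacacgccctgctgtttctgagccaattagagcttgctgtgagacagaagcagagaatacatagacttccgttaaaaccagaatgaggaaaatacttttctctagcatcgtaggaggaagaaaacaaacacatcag

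Metallothioneins were the list with the lowest median. These small cysteine-rich proteins bind zinc and copper, and their genes, clustered on chromosome 16, are switched on by zinc through the factor MTF1. Of 15 measured metallothioneins, zinc transporters and MTF1, 8 fell and 0 rose, against 1.46% of all genes lower, with a median log2 fold change of −1.34. With 1 of the 4 arrays left out, 6 to 9 members fell and the median ran from −1.55 to −1.08. MT1B had levels of 11.79 and 12.10 with epirubicin and LPS, against 14.56 and 14.09 with LPS (−2.38, SE 0.30, adjusted p = 0.0448). MT2A had levels of 14.32 and 14.40, against 16.39 and 15.94 with LPS (−1.80, SE 0.28, adjusted p = 0.0785). MT1E had levels of 11.70 and 12.15, against 13.78 and 13.60 with LPS (−1.76, SE 0.27, adjusted p = 0.0767). In each of these 3 genes the pair with both agents lay wholly below the LPS pair, and the calls held with any 1 of the 4 arrays left out. MT1M and MT1X fell by 1.71 and 1.34, and MT1G and MT1H, named after their values were seen, by 1.40 and 1.37. MT1G was at −1.08 without LPS duplicate 1 and MT1H at −1.14 without epirubicin with LPS duplicate 1 and −1.15 without LPS duplicate 1, short of the threshold. The genes are close copies of one another, so that their probes may share signal and the falls are not independent measurements.

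Of the zinc transporters, SLC39A8 passed the threshold and SLC30A1 pointed the same way without passing. SLC39A8, which brings zinc into the cytosol, had levels of 11.53 and 11.71 with epirubicin and LPS, against 13.17 and 13.22 with LPS (−1.58, SE 0.28, adjusted p = 0.0997). SLC30A1, the zinc exporter of the plasma membrane, had levels of 7.56 and 7.92, against 8.42 and 8.38 with LPS (−0.66, adjusted p = 0.374). MTF1 stood at −0.21 (adjusted p = 0.801). The importer thus fell by more than 2-fold, while neither the exporter nor the factor passed the threshold. The difference between importer and exporter was not tested. In the absence of LPS the list gave 0 members higher and 0 lower in the limma fit, and a median of −0.19. There MT2A averaged 12.98 with epirubicin and 13.97 in untreated cells (log2 fold change −0.99) and MT1B 10.81 with epirubicin and 11.79 in untreated cells (−0.98), both just short of 2-fold, and MT1M stood at −0.53, MT1X at −0.10 and MT1E at 0.16. The difference between the epirubicin effects with and without LPS was −0.81 for MT2A (SE 0.40, adjusted p = 0.735), −1.40 for MT1B (SE 0.43, adjusted p = 0.596), −1.93 for MT1E (SE 0.38, adjusted p = 0.52) and −1.39 for SLC39A8 (SE 0.39, adjusted p = 0.58), and none of the 4 passed after adjustment.

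Promoters of 3 fallen metallothionein genes are shown with the core of the metal response element in capitals, searched as TGCACNC or TGCGCNC on both strands, with overlapping matches allowed. This short core occurred in 5008 of 14280 windows (35.1%), in 80 of 206 windows of fallen genes (38.8%) and in 60 of 178 windows of risen genes (33.7%). Of the 5 fallen members of the list with a window 4 held it, and of the 4 members that did not pass 1 did. MT1B has 3 matches in chr16:56651636-56651935, MT2A has 8 in chr16:56608334-56608633 and MT1X has 4 in chr16:56682220-56682519, all on the plus strand.
MT1B: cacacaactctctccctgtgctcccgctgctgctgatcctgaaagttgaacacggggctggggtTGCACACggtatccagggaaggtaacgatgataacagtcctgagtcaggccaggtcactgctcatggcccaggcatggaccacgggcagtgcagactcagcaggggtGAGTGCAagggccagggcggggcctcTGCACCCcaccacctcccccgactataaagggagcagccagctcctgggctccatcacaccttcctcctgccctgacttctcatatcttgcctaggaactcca
MT2A: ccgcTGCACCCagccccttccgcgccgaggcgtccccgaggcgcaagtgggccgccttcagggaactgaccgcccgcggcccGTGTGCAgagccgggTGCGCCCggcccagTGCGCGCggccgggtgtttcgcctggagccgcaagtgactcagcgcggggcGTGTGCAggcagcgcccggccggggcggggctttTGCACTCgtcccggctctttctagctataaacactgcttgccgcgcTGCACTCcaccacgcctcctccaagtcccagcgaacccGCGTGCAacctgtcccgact
MT1X: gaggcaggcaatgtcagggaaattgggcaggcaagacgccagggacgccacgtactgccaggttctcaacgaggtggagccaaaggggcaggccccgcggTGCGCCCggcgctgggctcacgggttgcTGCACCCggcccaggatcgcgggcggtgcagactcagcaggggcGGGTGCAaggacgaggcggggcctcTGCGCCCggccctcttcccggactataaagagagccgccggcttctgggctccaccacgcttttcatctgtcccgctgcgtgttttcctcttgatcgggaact

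**Figure D3:**
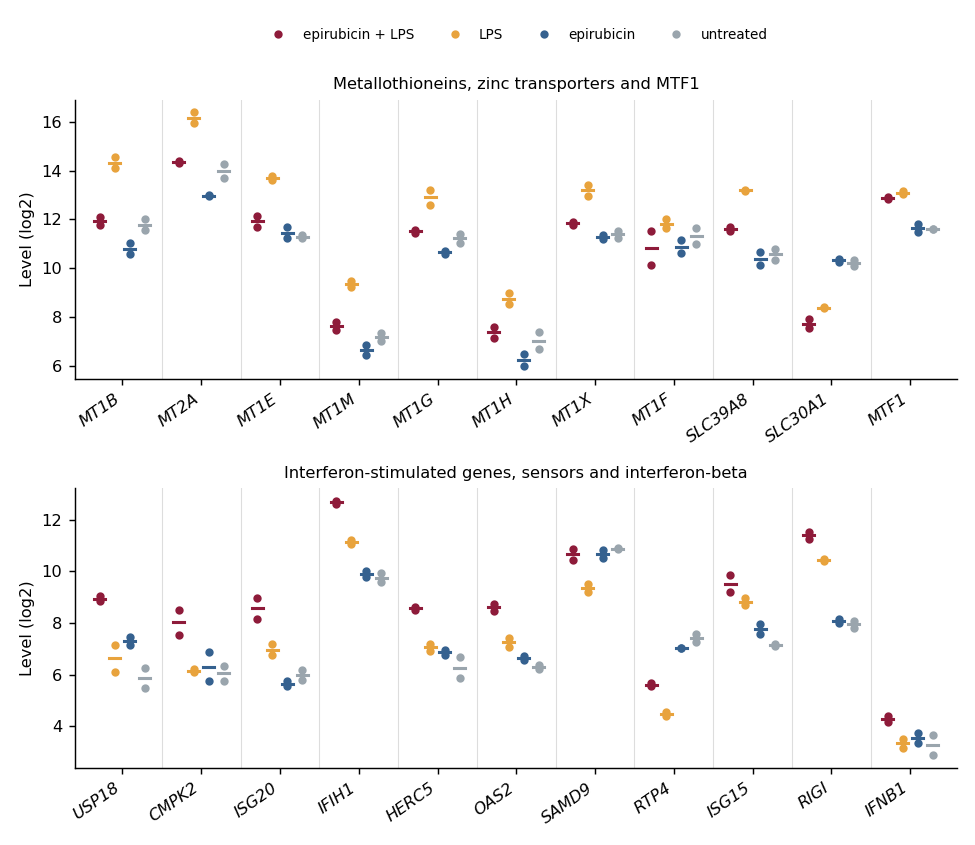
Log2 level (y axis) of each of the 8 arrays (points) and the mean of each duplicate pair (bars) for metallothioneins, zinc transporters and MTF1 (upper panel) and for interferon-stimulated genes, sensors and interferon-β (lower panel). MT2A is at 14.32 and 14.40 with epirubicin and LPS, against 16.39 and 15.94 with LPS, and IFIH1 is at 12.73 and 12.63 with epirubicin and LPS, against 11.08 and 11.21 with LPS.

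Iron handling showed 2 falls and 0 rises among 13 measured genes and a median of 0.07. STEAP3, a ferrireductase of the endosome, had levels of 6.37 and 5.99 with epirubicin and LPS, against 7.55 and 7.88 with LPS (−1.54, SE 0.27, adjusted p = 0.0997). SLC11A1, the metal transporter of the phagosome, had levels of 6.56 and 6.72, against 8.93 and 7.61 with LPS (−1.63, SE 0.41, adjusted p = 0.199). The pairs did not overlap, but SLC11A1 stood at −1.55 without epirubicin with LPS duplicate 1, −1.71 without epirubicin with LPS duplicate 2 and −0.97 without LPS duplicate 1, none of which passed. TFRC, the transferrin receptor, did not pass (0.49, adjusted p = 0.576).

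Surface receptors for bacterial products changed in both directions. CD14 had levels of 11.04 and 11.08 with epirubicin and LPS, against 12.88 and 13.26 with LPS (−2.01, SE 0.25, adjusted p = 0.0448). CD180, a TLR-like protein that works with MD-1, had levels of 7.13 and 6.54, against 9.31 and 9.22 with LPS (−2.43, SE 0.27, adjusted p = 0.0439). TLR4 had levels of 9.11 and 9.37, against 8.01 and 7.79 with LPS (1.34, SE 0.24, adjusted p = 0.104). TLR4 rose in the same arrays in which its co-receptor CD14 fell, and all 3 calls held with any 1 of the 4 arrays left out. Among all 17 genes of the Toll-like receptor list 1 rose and 2 fell (median −0.13). TLR2 had levels of 6.61 and 7.59 with epirubicin and LPS, against 7.97 and 8.01 with LPS (−0.90, adjusted p = 0.368), and did not pass. Its value rested on single arrays, for it was at −0.41 without epirubicin with LPS duplicate 1 and passed at −1.38 without epirubicin with LPS duplicate 2. MYD88 (0.71, adjusted p = 0.349) did not pass.

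CX3CR1, the fractalkine receptor of monocytes, had levels of 3.28 and 3.54 with epirubicin and LPS, against 5.66 and 6.07 with LPS (−2.46, SE 0.29, adjusted p = 0.0448). CXCR5, a chemokine receptor best known from B cells, had levels of 6.56 and 6.19, against 9.03 and 8.55 with LPS (−2.42, SE 0.32, adjusted p = 0.0496). FCMR, the Fc receptor for IgM, had levels of 10.55 and 10.27, against 12.53 and 12.23 with LPS (−1.97, SE 0.25, adjusted p = 0.0448). Each of these pairs was separated by more than the gap between its duplicates, and CX3CR1 was near background with both agents. HRH2, a histamine receptor, had levels of 4.36 and 4.21, against 6.37 and 6.13 with LPS (−1.96, SE 0.24, adjusted p = 0.0448). PIGR, the polymeric immunoglobulin receptor, had levels of 4.85 and 4.94, against 8.21 and 7.09 with LPS (−2.75, SE 0.50, adjusted p = 0.106). SAMSN1, an adaptor that dampens B cell activation, had levels of 5.33 and 5.43, against 8.42 and 7.92 with LPS (−2.79, SE 0.30, adjusted p = 0.0345) at the brighter of its 2 probe sets. These 3 genes were likewise lower in both arrays with epirubicin. LRRC25, TMEM37, TM4SF19 and TARP, which is transcribed from the T cell receptor γ locus, fell by 2.26, 2.26, 2.21 and 2.21 (adjusted p = 0.0579 to 0.131).

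Among 23 scavenger receptors, lectins and Fc receptors 2 fell and 0 rose (median −0.21). FCGR1A, the high-affinity IgG receptor, fell by 1.23 and was at −1.04 without epirubicin with LPS duplicate 1 and −1.05 without LPS duplicate 2. CD209, a lectin that binds mannose, fell by 1.04 and was at −1.03 without LPS duplicate 2. These values did not pass, and the haemoglobin scavenger receptor CD163 did not pass either (−0.12). Of 20 receptors for purines and lipids 2 fell, GPR34 by 1.52 and GPR84, a receptor for medium-chain fatty acids, by 1.31. GPR34 was under 6 in these arrays, at 3.20 and 4.15 with both agents, against 5.36 and 5.03 with LPS. GPR34 was at −1.05 without epirubicin with LPS duplicate 1, −1.36 without LPS duplicate 1 and −1.68 without LPS duplicate 2, and GPR84 at −1.02 without epirubicin with LPS duplicate 1 and −1.01 without LPS duplicate 2, again short of the threshold. Among 25 adhesion molecules the tetraspanin CD9 rose by 1.04 and VCAM1, which binds leukocyte integrins, by 1.11 (median of the list 0.04), and VCAM1 did not pass at 0.94 without epirubicin with LPS duplicate 1 and 1.04 without LPS duplicate 1.

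Cytokine genes changed in both directions. IL1RN, the natural antagonist of the IL-1 receptor, had levels of 12.29 and 12.21 with epirubicin and LPS, against 9.73 and 9.27 with LPS (2.75, SE 0.42, adjusted p = 0.075). IL10, an anti-inflammatory cytokine, had levels of 7.58 and 8.40, against 10.00 and 10.35 with LPS (−2.19, SE 0.44, adjusted p = 0.131). The pairs of both genes were clear of each other. Among 23 interleukins and antagonists 1 rose and 2 fell, with a median of −0.05. IL1B averaged 17.10 with epirubicin and LPS, against 17.69 with LPS (−0.59, adjusted p = 0.465) and did not pass. IL6 had levels of 4.27 and 5.96, against 6.44 and 6.69 with LPS, with duplicates far apart in the cells given both agents (−1.45, adjusted p = 0.352), and did not pass either, although without epirubicin with LPS duplicate 2 it passed at −2.30. IL18BP, the soluble inhibitor of IL-18, fell by 1.26 and was at −0.76 without epirubicin with LPS duplicate 1, −1.16 without LPS duplicate 1 and −1.36 without LPS duplicate 2, where it did not pass. TNF had levels of 10.63 and 10.42, against 11.30 and 10.61 with LPS (−0.43, adjusted p = 0.752), and its pairs overlapped. TNFSF13B, the B cell survival factor BAFF, had levels of 10.78 and 9.94, against 8.77 and 8.18 with LPS (1.88, SE 0.37, adjusted p = 0.124) and was the 1 call among 13 TNF superfamily ligands.

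Of 24 chemokine genes 1 rose, 1 fell and 22 did not pass, with a median of 0.14. CCL2, which draws monocytes, had levels of 8.34 and 8.23 with epirubicin and LPS, against 6.07 and 6.41 with LPS (2.04, SE 0.50, adjusted p = 0.191). It did not pass at 1.98 without epirubicin with LPS duplicate 1, 2.10 without epirubicin with LPS duplicate 2 and 1.87 without LPS duplicate 1. CCL3L3, a CC chemokine with near-identical copies in the genome, had levels of 14.02 and 13.94, against 15.31 and 15.49 with LPS (−1.42, SE 0.25, adjusted p = 0.0997). These were the 2 calls of the list. CXCL8, the neutrophil attractant, was bright in all 4 arrays, at 15.91 and 16.23 with both agents, against 16.42 and 16.28 with LPS. CXCL10, an interferon-induced chemokine, had levels of 6.68 and 6.88, against 5.75 and 5.75 with LPS (1.04, adjusted p = 0.293) and did not pass, although its pairs did not overlap.

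Among complement genes C1QC, a chain of the recognition molecule C1q, had levels of 7.53 and 8.93 with epirubicin and LPS, against 10.60 and 11.07 with LPS (−2.60, SE 0.46, adjusted p = 0.103). The A chain C1QA (−0.79, adjusted p = 0.599) did not pass, and neither did C3, the central complement component, at −0.18. Of 16 complement genes 1 fell and 0 rose (median −0.13). CPN2, a subunit of carboxypeptidase N, which inactivates complement fragments, had levels of 6.45 and 4.74, against 8.85 and 7.70 with LPS (−2.68, SE 0.57, adjusted p = 0.154) and was at −2.10 without LPS duplicate 1, where it did not pass. SPP1, osteopontin, a bright macrophage product, had levels of 14.94 and 15.18, against 16.81 and 16.81 with LPS (−1.75, SE 0.23, adjusted p = 0.0465), with duplicates close together. Matrix genes gave 1 call in each direction among 17. PLAU, the urokinase plasminogen activator, rose by 1.64 (SE 0.34) and TIMP3, an inhibitor of metalloproteases, fell by 1.83 (SE 0.41). PLAU did not pass at 1.37 without epirubicin with LPS duplicate 2 and 1.24 without LPS duplicate 2, nor TIMP3 at −1.66 without epirubicin with LPS duplicate 2 and −1.58 without LPS duplicate 2. Of 14 growth factors VEGFC, which acts on lymphatic vessels, rose by 1.20 and EREG, an EGF receptor ligand, fell by 1.81, while HBEGF (−0.66) and VEGFA (0.12) did not pass. EREG had means under 6 in both conditions, with levels of 4.00 and 3.69 with both agents, against 6.31 and 4.99 with LPS. VEGFC lost its call with any 1 of the 4 arrays left out (1.10 to 1.30), and EREG did so at −1.96 without epirubicin with LPS duplicate 1, −1.65 without epirubicin with LPS duplicate 2 and −1.14 without LPS duplicate 1.

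Histone genes fell where they changed. The linker histones H1-3, H1-4 and H1-5, which bind DNA where it enters and leaves the nucleosome, fell together with the core histone H2BC14. H1-3 had levels of 7.41 and 7.34 with epirubicin and LPS, against 9.53 and 9.52 with LPS (−2.15, SE 0.30, adjusted p = 0.0556). H1-4 had levels of 12.66 and 13.07, against 14.50 and 14.37 with LPS (−1.57, SE 0.25, adjusted p = 0.0785). H1-5 had levels of 12.60 and 12.71, against 14.21 and 14.04 with LPS (−1.47, SE 0.27, adjusted p = 0.104). In all 3 linker histones the duplicates lay close together beside the gap between the conditions. H2BC14 had levels of 11.33 and 11.80, against 13.47 and 13.34 with LPS (−1.85, SE 0.30, adjusted p = 0.0811). Of 48 measured replication-dependent histone genes these 4 fell and 0 rose, and the same held with any 1 of the 4 arrays left out. The median was −0.31, and 25 had both epirubicin arrays below both LPS arrays, where 20.7% of all genes did. Histone genes come in near-identical copies, so that single members are uncertain. Without LPS, epirubicin gave 3 falls, 1 rise and a median of −0.11 on the same list.

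Among genes of cell division, a few mitotic ones fell. PLK1, the polo-like kinase that drives entry into mitosis, had levels of 6.50 and 5.85 with epirubicin and LPS, against 8.38 and 8.96 with LPS (−2.49, SE 0.32, adjusted p = 0.0465). FAM83D, a spindle protein, had levels of 4.02 and 3.78, against 5.83 and 5.46 with LPS, at or near background with epirubicin (−1.75, SE 0.28, adjusted p = 0.0811). BUB1B, a kinase-like protein of the spindle checkpoint, had levels of 6.03 and 6.81, against 7.61 and 7.90 with LPS (−1.34, SE 0.30, adjusted p = 0.171) and was at −0.95 without epirubicin with LPS duplicate 1 and −1.19 without LPS duplicate 2, where it did not pass. These 3 were the calls among 43 genes of G2 and M phase, whose median was −0.39. The proliferation marker MKI67 (−0.34, adjusted p = 0.649) did not pass. TOP2A, the topoisomerase that anthracyclines trap, had levels of 7.61 and 7.98, against 8.91 and 8.26 with LPS (−0.79, adjusted p = 0.465) and did not pass. Of 41 S phase genes 1 rose and 0 fell (median 0.13). It was RFC2, a subunit of the clamp loader, with levels of 9.77 and 9.44, against 8.44 and 8.01 with LPS (1.38, SE 0.27, adjusted p = 0.131), while PCNA, the sliding clamp (−0.32), and MCM2, a part of the replicative helicase (−0.55), did not pass.

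Targets of p53, the factor stabilised after DNA damage, gave 3 rises and 0 falls among 26, with a median of 0.22. SESN2, which restrains mTORC1 under stress, had levels of 10.29 and 10.43 with epirubicin and LPS, against 9.21 and 8.15 with LPS (1.68, SE 0.38, adjusted p = 0.168). GADD45A, a growth arrest gene induced by damage, rose by 1.33 and TP53INP1, which modulates p53, by 1.23. SESN2 did not pass at 1.61 without epirubicin with LPS duplicate 2 and 1.15 without LPS duplicate 2, nor GADD45A at 1.06 without epirubicin with LPS duplicate 1 and 0.90 without LPS duplicate 1, and TP53INP1 lost its call with any 1 of the 4 arrays left out (1.14 to 1.33). CDKN1A, which encodes p21, had levels of 13.09 and 13.14, against 12.99 and 13.34 with LPS (−0.05, adjusted p = 0.961). MDM2, the ligase that degrades p53, had levels of 12.88 and 12.98, against 12.99 and 12.97 with LPS (−0.05, adjusted p = 0.964). Neither of these classical targets passed, and in both the pairs overlapped. Of 21 genes of DNA break signalling and repair 0 rose and 0 fell in the limma fit (median 0.02), with the damage kinase ATM at 0.27.

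Stress and death genes gave few calls. EDEM1, which sends misfolded glycoproteins to degradation, had levels of 12.76 and 12.30 with epirubicin and LPS, against 11.04 and 11.06 with LPS (1.48, SE 0.27, adjusted p = 0.104). DDIT3, the stress factor CHOP, rose by 1.38 but did not pass at 1.25 without epirubicin with LPS duplicate 1, 1.52 without epirubicin with LPS duplicate 2 and 1.20 without LPS duplicate 2. HSPA5 (−0.16), the main chaperone of the endoplasmic reticulum, and ATF4 (−0.40), the factor of the integrated stress response, did not pass, and the 19 genes of these responses had a median of 0.12. BCL2L11, which encodes the death inducer BIM, was the 1 of 21 apoptosis regulators that rose, with levels of 12.33 and 12.33, against 11.43 and 11.12 with LPS (1.05, SE 0.23, adjusted p = 0.166), and did not pass at 0.90 without LPS duplicate 2. In the inflammasome list of 15 CASP5, an inflammatory caspase that binds LPS, fell by 1.46 (SE 0.33) and was at −1.36 without epirubicin with LPS duplicate 2 and −1.36 without LPS duplicate 2, short of the threshold. NLRP3, an inflammasome sensor, had levels of 11.35 and 11.15, against 12.05 and 11.99 with LPS, a difference of −0.77 that missed 2-fold although the pairs did not overlap, and CASP1 stood at −0.20.

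LGR4, PPP1R27 and ETV5 were among the genes that fell by over 4-fold. LGR4, a receptor for R-spondins that strengthens Wnt signalling, had levels of 5.62 and 6.33 with epirubicin and LPS, against 9.60 and 9.66 with LPS (−3.66, SE 0.45, adjusted p = 0.0448). PPP1R27, a regulatory subunit of protein phosphatase 1, had levels of 8.06 and 8.06, against 11.44 and 11.21 with LPS (−3.27, SE 0.25, adjusted p = 0.00959). ETV5, an ETS factor induced by ERK signalling, had levels of 10.55 and 10.11, against 13.36 and 12.99 with LPS (−2.85, SE 0.26, adjusted p = 0.017). All 3 calls held with any 1 of the 4 arrays left out, but the genes contrasted in the cells without LPS. LGR4 was at 6.60 and 5.23 with epirubicin, against 6.64 and 7.10 in untreated cells, so that its LPS arrays were the high ones. PPP1R27 was at 8.55 and 8.15 with epirubicin, against 11.20 and 11.47 in untreated cells, so that both epirubicin conditions were the low ones. GNGT2, a G protein γ subunit, resembled PPP1R27, with 4.83 and 4.83 with both agents, against 7.47 and 7.10 with LPS (−2.46, SE 0.26, adjusted p = 0.0345), and 4.62 and 5.09 with epirubicin, against 7.24 and 7.09 in untreated cells. ETV5 was the 1 call among 18 ERK feedback genes (median 0.01), where DUSP6, an ERK phosphatase, stood at 0.58. LGR4 was the 1 call among 17 Wnt receptor genes (median 0.06).

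BCL11A and EBF1, transcription factors of the B lineage, were like LGR4 highest in the LPS arrays. BCL11A had levels of 6.83 and 6.79 with epirubicin and LPS, against 8.77 and 9.15 with LPS (−2.15, SE 0.28, adjusted p = 0.0466). EBF1 had levels of 6.22 and 6.47, against 8.38 and 8.68 with LPS (−2.19, SE 0.31, adjusted p = 0.0579). Means without LPS were lower still, at 4.73 with epirubicin and 5.09 in untreated cells for BCL11A and 3.95 with epirubicin and 4.30 in untreated cells for EBF1. KLF2, a factor that restrains inflammatory gene expression, had levels of 9.26 and 9.64, against 10.87 and 10.75 with LPS (−1.36, SE 0.27, adjusted p = 0.131) and was the 1 call among 24 immediate early factors, whose median was −0.34. FOS (−0.49) and EGR1 (−0.17) did not pass. Of 16 NF-κB subunits and inhibitors 0 rose and 0 fell in the limma fit, with NFKB1 at 0.13, NFKBIA at −0.39 and a median of 0.21. The 16 brakes of cytokine signalling likewise had 0 rises and 0 falls, with SOCS3 at −0.36, DUSP1 at −0.43 and a median of −0.39. Over all probe sets, 2278 had an unadjusted p under 0.05 in that fit.

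Among 51 histone-modifying enzymes 1 rose and 2 fell (median −0.14). HDAC7, a class IIa deacetylase, had levels of 8.43 and 8.52 with epirubicin and LPS, against 9.75 and 9.82 with LPS (−1.31, SE 0.25, adjusted p = 0.113). KAT2A, the acetyltransferase GCN5, fell by 1.37 but did not pass at −0.98 without epirubicin with LPS duplicate 2, −1.49 without LPS duplicate 1 and −1.25 without LPS duplicate 2. HDAC11, a deacetylase of class IV, rose by 1.20 near background (4.16 and 4.35, against 2.70 and 3.40 with LPS) and did not pass at 1.30 without epirubicin with LPS duplicate 1, 1.11 without epirubicin with LPS duplicate 2 and 0.85 without LPS duplicate 1. The demethylase KDM4A (−0.43) and the acetyltransferase KAT6A (0.62) did not pass, so that HDAC7 was the 1 call that held with any 1 of the 4 arrays left out.

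Metabolic genes fell in small numbers. ALDOC, an aldolase of glycolysis, averaged 7.45 with epirubicin and LPS, against 9.03 with LPS (−1.58, SE 0.27, adjusted p = 0.0971), and the call held with any 1 of the 4 arrays left out. SLC2A3, the glucose transporter GLUT3, had levels of 9.59 and 9.79, against 10.97 and 10.59 with LPS, a fall of 1.09 on the log2 scale, and did not pass at −0.99 without epirubicin with LPS duplicate 1, −1.20 without epirubicin with LPS duplicate 2 and −0.90 without LPS duplicate 1. These were the 2 calls among 26 genes of glycolysis and hypoxia (median −0.13). In cholesterol synthesis 2 of 20 genes fell (median −0.31), SC5D by 1.17 and MSMO1 by 1.05, enzymes that act on sterol rings, while HMGCS1 (−0.34) and SQLE (−0.15) did not pass. SC5D did not pass at −0.96 without epirubicin with LPS duplicate 1, −1.38 without epirubicin with LPS duplicate 2 and −0.80 without LPS duplicate 2, nor MSMO1 at −0.71 without epirubicin with LPS duplicate 1, −0.96 without LPS duplicate 1 and −1.14 without LPS duplicate 2. POLR1A, the large subunit of RNA polymerase I, was the 1 of 18 ribosome biogenesis genes that fell, by 1.11, and it lost the call with any 1 of the 4 arrays left out (−1.25 to −0.96). In the limma fit 0 of 28 respiratory chain subunits, 0 of 17 ribosomal proteins, 0 of 17 lysosomal enzymes, 0 of 12 heat shock factor targets and 0 of 15 NRF2 targets passed, with medians of 0.09, 0.01, 0.13, −0.05 and 0.11.

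**Figure D4:**
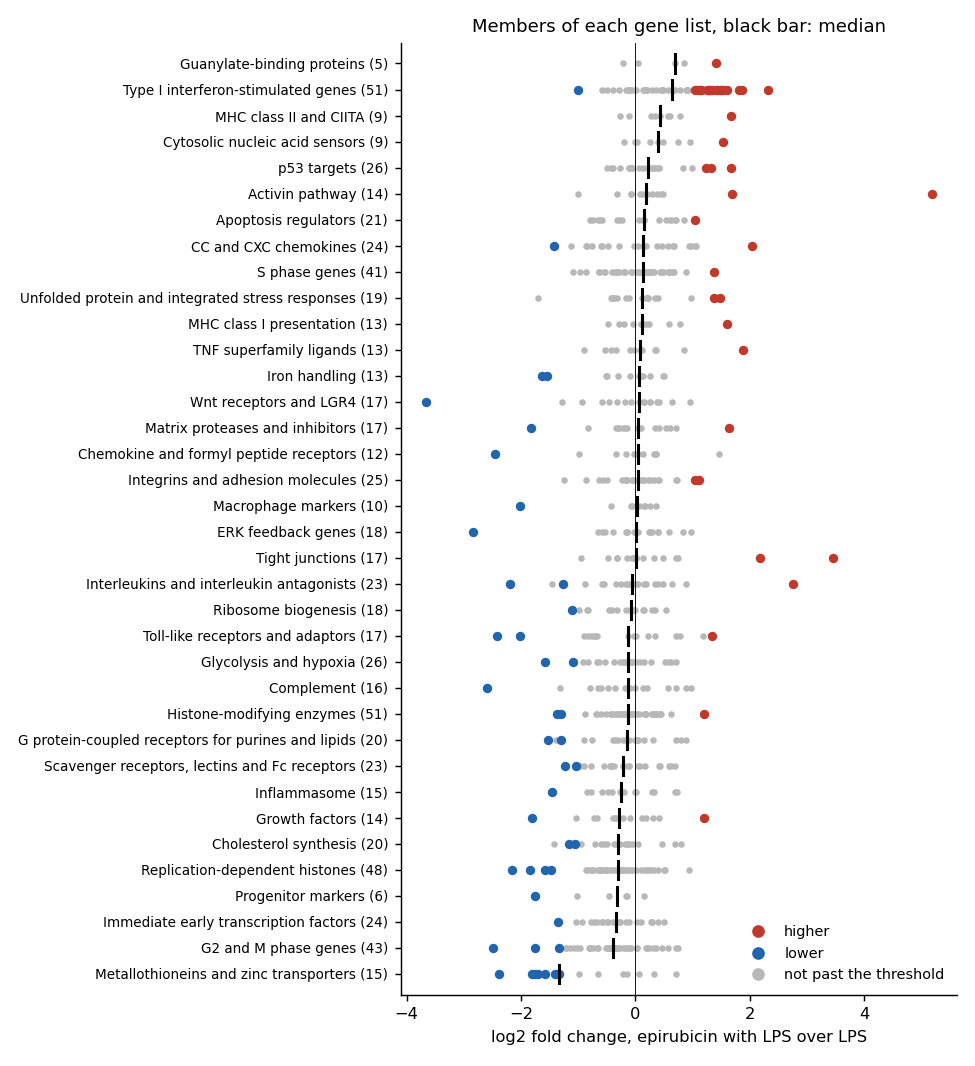
Log2 fold change of epirubicin with LPS over LPS (x axis) for the members of each list with at least 1 call, with the number of measured members in brackets and a black bar at the median. Interferon-stimulated genes hold 19 higher members (red) of 51 and metallothioneins and zinc transporters 8 lower members (blue) of 15, while the other lists hold 1 to 4 calls.

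The epirubicin effect with LPS was then set against that without LPS, which comes from the 4 other arrays in the same model. In the comparison without LPS 477 probe sets passed the threshold (2.28%), and 1.06% of genes were higher and 1.22% lower. Of the 226 genes that rose under LPS, 169 also had a positive log2 fold change without LPS, 31 rose there too and 3 fell, and their median was 0.36 without LPS beside 1.29 with it. Of the 259 that fell, 201 had a negative value without LPS, 57 fell there too and 2 rose, with medians of −0.45 without LPS and −1.32 with it. Since the genes were chosen for their change under LPS, their smaller medians without it are a description.

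The difference itself, the effect with LPS minus that without, passed after adjustment in 1 of 20893 probe sets (0.00479%), FSTL3 (5.19, SE 0.42, adjusted p = 0.029). With any 1 of the 8 arrays left out, 0 probe sets passed after adjustment in limma. An unadjusted p of 0.01 or less and a difference of at least 1 was reached by 342 probe sets (1.64%) or, counted as genes, 283 (1.59%), and 1542 probe sets had a p under 0.05. Several other genes had opposite signs in the 2 comparisons without passing after adjustment. SLC12A7, a potassium-chloride cotransporter, had levels of 11.44 and 11.49 with epirubicin and LPS, against 9.67 and 9.95 with LPS. Without LPS it had 7.47 and 6.99 with epirubicin, against 8.56 and 9.07 in untreated cells (difference 3.24, SE 0.40, adjusted p = 0.141). In this gene no pair overlapped its control pair, and epirubicin stood above its control with LPS and below it without. JCAD, a junction protein of endothelial cells, averaged 6.71 with epirubicin and LPS, against 4.84 with LPS. Without LPS it averaged 4.03 with epirubicin and 5.27 in untreated cells (difference 3.11, SE 0.38, adjusted p = 0.141), the same order as in SLC12A7. TRIM47, a ubiquitin ligase, also rose with LPS and fell without it (difference 2.61, SE 0.34, adjusted p = 0.141). These 3 were the genes that passed in opposite directions among the 226. CGN and LINC01359 gave differences of 3.58 and 3.01 (adjusted p = 0.141 and 0.141), and NXN gave 3.92 (adjusted p = 0.318).

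In the other direction, MLNR, the motilin receptor, was near background with LPS, at 4.12 and 3.87 with epirubicin and LPS, against 4.56 and 4.36 with LPS. Without LPS it had 8.29 and 8.80 with epirubicin, against 5.48 and 5.92 in untreated cells (difference −3.31, SE 0.40, adjusted p = 0.141). SNAI1, a repressor known from epithelial-mesenchymal transition, was high in all arrays with LPS, at 12.92 and 12.86 with both agents, against 13.46 and 12.93 with LPS. In cells without LPS it had 7.13 and 7.54 with epirubicin, against 5.40 and 4.85 in untreated cells (difference −2.51, SE 0.43, adjusted p = 0.439). Both genes thus rose with epirubicin without LPS, by 2.84 and 2.20, and did not pass with it. SAMD4A, an RNA-binding repressor, and IGFBP6, which binds IGF-2, fell with LPS and rose without it, the 2 genes of this kind among the 259. SAMD4A had levels of 7.10 and 6.94 with epirubicin and LPS, against 8.77 and 8.71 with LPS, and 7.89 and 8.98 with epirubicin, against 7.33 and 6.60 in untreated cells (difference −3.19, SE 0.55, adjusted p = 0.444). IGFBP6 gave a difference of −2.59, SE 0.41, adjusted p = 0.342. The fall of SAMD4A under LPS did not pass at −1.64 without epirubicin with LPS duplicate 2 and −1.69 without LPS duplicate 1, and that of IGFBP6 was lost with any 1 of the 4 arrays left out (−1.27 to −1.19). ZNF219 and TMIGD2 gave −2.61 and −2.70 (adjusted p = 0.154 and 0.342). The effects on GNGT2, FCMR, C1QC and CD209 were close in size with and without LPS, with differences of −0.15, 0.04, −0.18 and 0.03 and standard errors of 0.37, 0.35, 0.65 and 0.32.

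**Figure D5:**
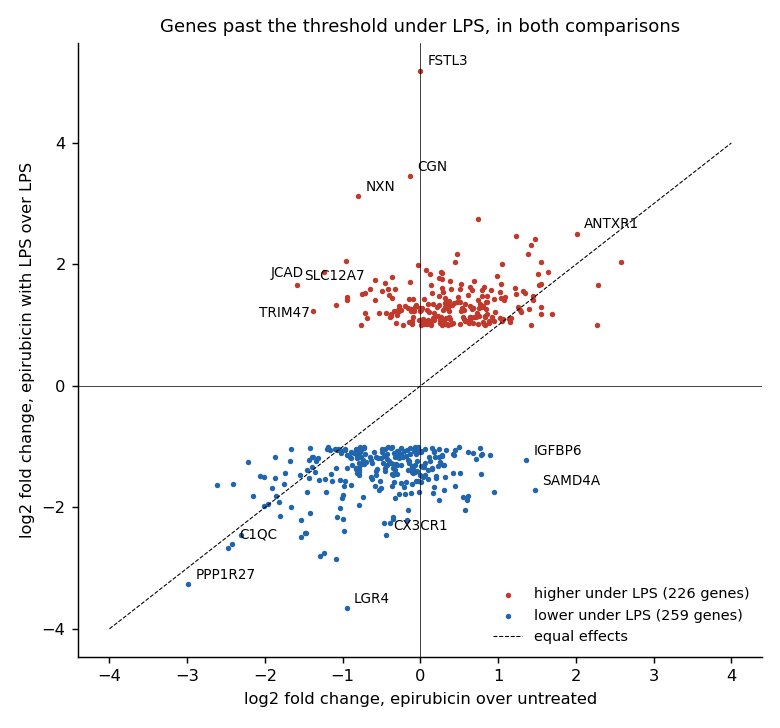
Each point is 1 of the 226 genes higher (red) or 259 genes lower (blue) under LPS, placed by the log2 fold change of epirubicin over untreated (x axis) and of epirubicin with LPS over LPS (y axis), with a dashed line where both are equal. FSTL3 lies at 0.00 and 5.19, SLC12A7 at −1.59 and 1.65, and PPP1R27 near the line at −2.99 and −3.27.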

How the data were processed

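RNA of 8 THP-1 samples, 2 for each of 4 conditions, had been measured on Clariom S HT arrays. The deposited values are log2 levels that the authors made by RMA per the labels (SST-RMA in their methods). Its version was not given in the sources used here. Of 24351 rows, 2903 control rows and 555 rows whose identifiers start with TS were left out, and 20893 were tested. Symbols were found for 17800 of these (95 from the tables of the study), 3093 had none here, and among several probe sets of a gene the brightest over all arrays stood for it. The limma model (version 3.58.1, R 4.3.3) had 4 conditions and no covariate, with lmFit and eBayes over all 8 arrays, and p-values were adjusted over all 20893 probe sets by the Benjamini-Hochberg method. The script was tested on simulated data. Samples were grouped by the doses in their titles. Deviations from the condition means of same-numbered arrays correlated at −0.01 to 0.02, so that no array-wide deviation shared by replicate number was seen. Whether same-numbered arrays came from one culture or run is stated neither in the labels nor in the methods. These correlations cannot decide it.

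The named genes were the 20 largest rises and 20 largest falls past the threshold with a mean of at least 6 in the higher condition, those with an adjusted p of at most 0.05, up to 6 changed members of each of 53 gene lists together with up to 2 defining members, and the 6 smallest p-values for the difference in each direction. Members and lists were chosen with earlier results of these data known, so lists are described by counts and medians, without a test. Alternatives were a fit of 4 arrays, a replicate block, leaving out each array, a mean-dependent prior variance, quantile normalization, leaving out dim probe sets and the adjusted p.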

Additional observations from a re-analysis of the deposited data

Results flagged for a closer look

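The epirubicin effect on FSTL3, which encodes a secreted antagonist of activins, differed between cells with and without LPS by 5.19 on the log2 scale (SE 0.42, limma, adjusted p = 0.029). The test was of the difference itself. Both arrays with epirubicin and LPS were above both LPS arrays, by 5.19 on average, while the effect without LPS was 0.00. Leaving out any 1 of the 8 arrays brought the number of probe sets past an adjusted p of 0.05 for this difference to 0.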

How the results depend on the processing

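The counts past the threshold were 570 probe sets with LPS (270 higher, 300 lower) and 477 without. With 1 array left out they ran from 478 to 572 with LPS (higher 217 to 277, lower 261 to 295) and from 408 to 486 without (higher 183 to 236, lower 204 to 259). At an adjusted p of at most 0.05 the numbers were 26 with LPS (10 higher, 16 lower) and 3 without (1 higher, 2 lower). The 26 became 406 with a prior variance that depends on the mean (403 in its robust form), 94 with dim probe sets left out, 22 after quantile normalization and 0 with the 4 arrays of the comparison alone, where the cause was not tested. The difference of the epirubicin effects, past adjustment in 1 probe set, gave 45 with the mean-dependent prior (45 in its robust form), 342 at 2-fold and an unadjusted p of 0.01 or less, and 0 to 0 with 1 array left out, in which fewer samples were fitted. With the replicate number as a block, the difference gave 0 calls and the comparison with LPS 5 at an adjusted p of at most 0.05. Testing the rows with TS identifiers as well, an alternative chosen after seeing the data, left both counts within 1.5 times. CDKN1A, at −0.05, ran from −0.23 to 0.12 with 1 array left out and passed in neither direction. Over 154 named genes and the alternatives, 2096 values kept direction and side of the threshold, 196 lost the call, 9 gained it and 1 reversed. The value file holds no detection calls, so signal over background limits genes below a level of 6.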

Other observations

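Genes that handle anthracyclines, namely drug transporters and enzymes that convert these drugs, gave 0 higher and 0 lower members of 14 in the limma fit under LPS, with a median log2 fold change of 0.13, and 2278 probe sets of the whole array had an unadjusted p under 0.05. Genes of cholesterol efflux and other targets of the LXR receptors gave 0 higher and 0 lower members of 11 and a median of 0.02.

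Gene length was read from RefSeq spans for genes with a mean level of at least 6 in a condition with LPS. The median span was 32670 bases for 182 genes that rose and 24682 bases for 207 that fell, against 30688 bases for all 9208 genes. Spans over 100 kb made up 22% of the risen and 16.9% of the fallen genes, against 17.5% of all. These are descriptions, since genes are not independent replicates.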
